A study of Mus musculus with 9 samples.

Results

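Among 1107 odorant receptor (OR) genes listed in the count table, 9 are receptors on which much of the biology of the mouse nose was worked out, and they were chosen by name: Olfr1507 (MOR28), Olfr1508 (MOR10), Olfr1509 (MOR83), Olfr17 (P2), Olfr16 (MOR23), Olfr2 (I7), Olfr73 (mOR-EG), Olfr151 (M71) and Olfr160 (M72). No measured value entered the choice, although it was made with earlier results of these data known. All 9 passed the filter of 10 summed reads, as did 1070 OR genes in all. RNA-seq was performed on whole main olfactory epithelium (MOE) from 9 mice, 3 wild-type, 3 heterozygous and 3 homozygous for a deletion of TAAR enhancer 1, a regulatory element of the trace amine-associated receptor (Taar) cluster on chromosome 10, where none of the 9 genes lies. The labels give strain C57BL/6 and age P14 for every mouse, whereas the study's reporting form gives a mixed background and adult mice for this line, and the difference could not be settled. The deletion was made by CRISPR-Cas9 in zygotes, is carried in every cell, and was kept as 1 line. The genotypes were littermates, and 1 library was made per mouse.

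Each olfactory sensory neuron expresses 1 OR gene from 1 allele, and neurons of the same choice send their axons to the same glomeruli in the olfactory bulb. OR genes lie in clusters along many chromosomes and are switched on with the help of enhancers. The paper describes these enhancers as contacting each other between chromosomes, and proposes that they act on OR genes of their own chromosome. MOR28, MOR10 and MOR83 share a cluster beside the H element, the first OR enhancer described. P2 was the receptor tagged in the first mice in which the axons of neurons with 1 choice were traced, M71 and M72 served for swapping coding sequences between loci, I7 is known for its response to octanal, mOR-EG for eugenol, MOR23 for lyral and M71 for acetophenone. In whole tissue, fewer neurons that chose a receptor and less mRNA per neuron cannot be told apart.

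Between 24583906 and 32631951 reads per mouse were counted in genes, of which 0.294 to 0.328% fell in OR genes. Genes of mature olfactory sensory neurons were abundant in every library, with Omp at 3045 to 3549 CPM (counts scaled to 1e+06 per library after TMM), and the 10 markers of these neurons were all tested. Reads of Taar2 to Taar5 summed to 227 to 337 per wild-type mouse, 158 to 176 per heterozygote and 1 to 3 per homozygote, an order that fits the labelled genotypes. In 3 libraries, het 1, homo 2 and homo 3, genes of vomeronasal receptors summed to 67.3 to 119.8 CPM against 14.5 to 17.3 CPM in the other 6. Trpc2, the channel that marks vomeronasal neurons, was listed at 0 reads in every library, also in these 3. Why its row was empty was not tested, so it is not read as absence of these neurons. For each of the 9 receptors the range over the 3 libraries overlapped the range over the other 6. Such overlap cannot decide whether a smaller shift common to the 9 was present.

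The 9 genes occupy 5 chromosomes of GRCm38. On chromosome 14, Olfr1509 (52450393 to 52451402, plus strand), Olfr1508 (52462721 to 52467461, minus strand) and Olfr1507 (52489935 to 52495695, minus strand) follow each other with gaps of 11.3 and 22.5 kb. On chromosome 9, Olfr160 (37711348 to 37712280) and Olfr151 (37729977 to 37731061) are 17.7 kb apart on the minus strand. On chromosome 7, Olfr2 (107000875 to 107002605, minus strand) and Olfr17 (107097467 to 107098414, plus strand) are 94.9 kb apart. Olfr16 lies on chromosome 1 (172956768 to 172957817, plus strand) and Olfr73 on chromosome 2 (88034196 to 88035137, minus strand). These are RefSeq gene spans, and each coding sequence is 1 exon in GENCODE M21.

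Sequence decides how well reads of such genes can be told apart, so the close pairs were compared first. The coding runs of Olfr151 and Olfr160, from ATG to stop, were 96.7% identical, with 30 mismatches and 1 gap base. Those of Olfr1507 and Olfr1508 were 92.1% identical, with 65 mismatches and 9 gap bases. Olfr1509 was 65.3 and 65.6% identical to these neighbours, and the pair next in order, Olfr1509 and Olfr17, stood at 61.0%. The first 120 bases of the coding runs of M71 (chr9:37730862-37730981) and M72 (chr9:37712158-37712277) are shown to make the likeness visible, with the 10 bases that differ in capitals.
M71: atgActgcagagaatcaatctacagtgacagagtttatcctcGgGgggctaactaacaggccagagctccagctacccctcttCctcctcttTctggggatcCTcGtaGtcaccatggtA
M72: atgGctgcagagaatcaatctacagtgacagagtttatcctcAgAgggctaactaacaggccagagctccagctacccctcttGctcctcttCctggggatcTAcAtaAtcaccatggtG
The same stretch of MOR28 (chr14:52490843-52490962) and MOR10 (chr14:52463888-52464007) held 6 differing bases.
MOR28: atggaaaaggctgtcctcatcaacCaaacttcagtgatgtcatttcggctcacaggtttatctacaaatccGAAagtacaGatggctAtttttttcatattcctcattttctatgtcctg
MOR10: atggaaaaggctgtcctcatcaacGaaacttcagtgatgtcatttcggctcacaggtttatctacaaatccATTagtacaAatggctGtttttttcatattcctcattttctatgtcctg

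The reference sequence of M71 is not an intact reading frame. RefSeq lists Olfr151 as a transcribed pseudogene and GENCODE M21 as a polymorphic pseudogene, a gene that is broken in some mice and whole in others. Its coding run had 929 bases against 930 in M72, and the missing base fell in a run of G. The stretch around it is shown for M71 (chr9:37730183-37730301) and M72 (chr9:37711478-37711597), with differing bases in capitals and, in M72, the base that M71 lacks.
M71: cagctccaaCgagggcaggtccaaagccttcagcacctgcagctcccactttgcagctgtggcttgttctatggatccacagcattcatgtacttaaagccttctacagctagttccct
M72: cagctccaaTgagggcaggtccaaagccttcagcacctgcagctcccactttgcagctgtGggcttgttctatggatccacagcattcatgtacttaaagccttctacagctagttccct
Read from the ATG, the M71 run met its first in-frame stop at base 775, after 258 codons, and the M72 run at base 928, after 309 codons. The other 7 runs were open for 308 to 327 codons. Whether the mice sequenced here carry the broken form cannot be read from a table of counts.

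A read that fits 2 genes equally well is not counted for either, and 16.9 to 19.4% of the reads accounted for in each library had more than 1 place. Of all 50-base stretches of the coding run, 59.7% were found in no other gene's transcripts for both Olfr151 and Olfr160, and 82.1 and 81.9% for Olfr1507 and Olfr1508. At 100 bases these shares were 84.94 and 84.96% for the M71 and M72 genes and 94.8 and 94.7% for the MOR28 and MOR10 genes. At 150 bases Olfr1507 and Olfr1508 were unique throughout and Olfr151 and Olfr160 to 96.4% each. The other 5 receptors were unique throughout at all 3 lengths. The read length is not given in the sources used here, so counts of the 4 genes in the close pairs are uncertain by an unknown amount.

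RefSeq promoter windows were at hand for 6 of the 9 genes. That of Olfr1508 starts at an upstream noncoding exon, while Olfr1509 begins at 52450393 in RefSeq and already at 52442990 in GENCODE M21, so its window lies inside the longer model. The 250-base windows before the RefSeq starts were searched on both strands for TAATTA and TAATGA, cores bound by homeodomain proteins such as Lhx2, and for CCCNNGGG, the core bound by Ebf factors. TAATGA was found in the windows of Olfr1508, Olfr1509 and Olfr16, against 25.3% of 944 OR windows and 8.59% of all 32851 windows. TAATTA was in 18.1% and CCCNNGGG in 2.75% of OR windows, and neither was in a window of the 6 receptors. The 216 bases before both annotated starts of MOR10 (chr14:52467496-52467711, minus strand) are shown because MOR28, MOR10 and MOR83 varied together, as described further on, with the TAATGA match, on the other strand, in capitals.
MOR10 upstream: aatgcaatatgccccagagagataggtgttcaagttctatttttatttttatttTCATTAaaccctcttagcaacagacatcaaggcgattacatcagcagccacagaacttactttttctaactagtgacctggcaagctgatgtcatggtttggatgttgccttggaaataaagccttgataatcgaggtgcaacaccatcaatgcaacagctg

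MOR28 was one of the most abundant ORs of this tissue. By mean CPM, Olfr1507 stood at rank 2 of 1070 OR genes, with 51.1 ± 8.77 (SD, n = 9 mice), behind Olfr536. The median OR gene had 2.09 CPM, and 8 of the 9 receptors lay above it. Olfr1508 had rank 19, Olfr17 rank 38 and Olfr1509 rank 78, whereas Olfr160, Olfr16, Olfr73 and Olfr2 fell between ranks 222 and 363. Olfr151 was the exception, at rank 1046 with 2 to 12 reads per mouse. Together the 9 genes took 2.46 to 3.41% of all OR reads, and Olfr1507 alone supplied 50.2 to 58.7% of their summed CPM.

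To compare receptors with each other, CPM was divided by exon length in kb. The mean level over the 9 mice was 30.4 ± 5.23 CPM per kb (SD) for Olfr1507, 9.02 ± 0.942 for Olfr17, 6.25 ± 1.48 for Olfr1509 and 6.11 ± 0.760 for Olfr1508. The mean level was 4.17 ± 0.477 CPM per kb for Olfr160, 3.69 ± 0.257 for Olfr16, 3.36 ± 0.704 for Olfr73, 2.29 ± 0.383 for Olfr2 and 0.206 ± 0.110 for Olfr151. Of the 36 pairs, 33 differed within mice by a two-sided exact sign-flip permutation test with Benjamini-Hochberg adjustment over the 36. MOR28 exceeded P2 in 9 of 9 mice by 3.33-fold per kb (exact permutation p = 0.00391, the smallest possible, adjusted p = 0.00469). I7 exceeded M71 in 9 of 9 mice by 10.5-fold with the same p-values. Steps in the order that did not pass were those from Olfr1509 to Olfr1508, at 1.01-fold and higher in 5 of 9 mice (exact permutation adjusted p = 0.898), from Olfr160 to Olfr16, at 1.13-fold and higher in 6 of 9 (exact permutation adjusted p = 0.0538), and from Olfr16 to Olfr73, at 1.12-fold and higher in 8 of 9 (exact permutation adjusted p = 0.133).

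The places of MOR10 and some other receptors depended on the length used. By coding length, Olfr1508 had 12.2 CPM per kb and order 2, and with all exons of GENCODE M21 it had 1.97 CPM per kb and order 4, below Olfr1509 at 2.45. Olfr17 fell to order 3 by both lengths. With all exons of GENCODE M21 it had 2.33 CPM per kb, below Olfr1509, so the step from P2 to MOR83 turned. Olfr16, at 1.44, then also stood above Olfr160, at 1.11. Olfr1507 was at the top and Olfr151 at the bottom by every length tried. M72 and M71 differed most for a pair so alike in sequence: 965 reads of Olfr160 and 56 of Olfr151 were counted over all mice, and the ratio of reads ran from 7.36 in WT 3 to 42.5 in WT 1. Per kb the pooled ratio was 20.04, and 17.3 by coding length. How far the shared sequence lowered each count was not tested.

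**Figure D1:**
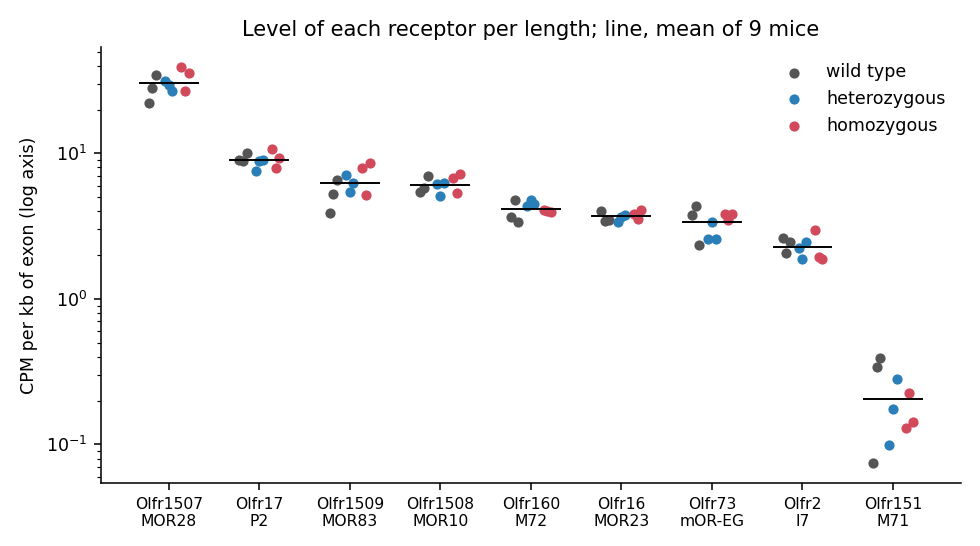
Level of each receptor in CPM per kb of exon, on a log axis, with 1 point per mouse coloured by genotype and a line at the mean of the 9 mice. Olfr1507 (MOR28) lies at 22.2 to 39.1 CPM per kb, 7 receptors lie between 1.88 and 10.7, and Olfr151 (M71) lies at 0.0740 to 0.392.

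Whether deletion of the Taar enhancer left these receptors as they were was asked with edgeR across all 20213 genes tested. None of the 9 was called at an adjusted p of 0.05 in any comparison. The share of all genes called, the background, was 0.0495% for homozygous against wild type, 0.00495% in heterozygous against wild-type, 0.114% in homozygous against heterozygous and 0.0643% for any difference among the genotypes, so 0 of 9 says little by itself. No OR gene of the 1070 was called either. At an unadjusted edgeR p under 0.05, 1 of the 9, Olfr1509, was counted in homozygous against wild-type mice and 0 in the other 3 tests. In the order given, 54, 31, 56 and 45 of the 1070 OR genes were counted, and 1872, 656, 2106 and 1708 of all 20213 genes. DESeq2 called none of the 9, although with its default settings 8 of the 9 received no adjusted p in each homozygous comparison. The intervals are the more informative result. Leaving M71 aside, the fitted homozygous to wild-type ratio was 0.962 to 1.38, and the 95% intervals together ran from 0.716 to 1.85.

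MOR28 was highest in homo 1 and lowest in WT 1. Its CPM was 37.3, 46.9 and 57.6 in the wild-type mice, 52.5, 49.5 and 44.9 in the heterozygotes and 65.7, 45.4 and 59.9 in the homozygotes. The genotypes overlapped, since homo 2 lay below 2 of the 3 wild-type mice. The fitted ratio of homozygous to wild type was 1.21 (95% interval 0.991 to 1.47, edgeR adjusted p = 0.565), that of heterozygous to wild type 1.03 (0.849 to 1.26) and that of homozygous to heterozygous 1.17 (0.958 to 1.42). Without het 1, homo 2 and homo 3, the libraries rich in vomeronasal reads, the log2 difference from wild type was 0.47 in place of 0.27, resting on 1 homozygote (edgeR adjusted p = 0.925). Leaving out single libraries gave 0.13 to 0.44, with 0.13 without WT 1, 0.16 without homo 1, 0.44 without WT 3 and 0.41 without homo 2.

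MOR10, the closest relative of MOR28, was steadier. Its CPM was 10.1, 10.8 and 13.0 in wild type, 11.4, 9.57 and 11.6 in heterozygotes and 12.7, 9.96 and 13.5 in homozygotes. The 3 genotypes overlapped, with ratios to wild type of 1.07 (0.886 to 1.30) in homozygotes and 0.967 (0.798 to 1.17) in heterozygotes. MOR83 had 3.93, 5.35 and 6.61 CPM in wild type, 7.16, 5.48 and 6.36 in heterozygotes and 7.96, 5.24 and 8.74 in homozygotes. WT 1 was the lowest mouse and homo 3 the highest, and homo 2 fell inside the wild-type range. MOR83 had the smallest p of these receptors in homozygous against wild-type mice. The ratio was 1.38 (1.03 to 1.85, edgeR adjusted p = 0.494). Its ratio was 1.19 (log2 interval -0.16 to 0.68) in heterozygotes against wild type and 1.16 (0.869 to 1.54) in homozygotes against heterozygotes. Leaving out single libraries moved the log2 difference of MOR83 between homozygotes and wild type from 0.47 to between 0.30, without WT 1, and 0.66, without homo 2. When all libraries were scaled to summed OR reads instead, 0 of the 9 had an unadjusted p under 0.05 in homozygous against wild-type mice.

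P2 ranged little. Its CPM was 8.47, 8.34 and 9.47 in wild type, 7.20, 8.36 and 8.59 in heterozygotes and 10.1, 7.56 and 8.82 in homozygotes, and the homozygotes spanned all wild-type values. The ratio of homozygous to wild type was 1.01 (0.843 to 1.21), the narrowest interval of the 9. I7, which shares the chromosome 7 cluster with P2, had 3.29, 2.57 and 3.09 CPM in wild type, 2.81, 2.34 and 3.08 in heterozygotes and 3.73, 2.44 and 2.36 in homozygotes. Homo 1 was the highest mouse and the other 2 homozygotes lay below all wild-type mice, with a ratio of 0.962 (0.716 to 1.29). P2 was read 2.56 to 3.74 times for each read of I7.

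MOR23 was the steadiest of the 9. Its CPM was 4.22, 3.60 and 3.63 in wild type, 3.56, 3.82 and 3.96 in heterozygotes and 4.05, 3.74 and 4.29 in homozygotes. The SD over the 9 mice was 6.95% of the mean, below the 9.72% that counting error alone would give at its mean count, and the homozygous to wild-type ratio was 1.06 (0.861 to 1.30). mOR-EG spread more within wild type than between genotypes. Its CPM was 3.57, 4.12 and 2.20 in wild type, 2.42, 3.18 and 2.44 in heterozygotes and 3.59, 3.29 and 3.64 in homozygotes. WT 3 was the lowest and WT 2 the highest of all mice. The ratio was 1.06 (0.782 to 1.43) in homozygotes against wild type, 0.804 (0.592 to 1.09) in heterozygotes against wild type and 1.31 (0.966 to 1.78, edgeR adjusted p = 0.538) in homozygotes against heterozygotes.

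M72 had 3.41, 4.43 and 3.13 CPM in wild type, 4.06, 4.46 and 4.19 in heterozygotes and 3.84, 3.78 and 3.71 in homozygotes. The homozygotes lay close together inside the wild-type range, with a ratio of 1.03 (0.819 to 1.29). M71 had 2, 12 and 11 reads in wild type, 3, 5 and 9 in heterozygotes and 4, 6 and 4 in homozygotes, or 0.0803 to 0.425 CPM. WT 1 was the lowest of all mice and WT 3 the highest by CPM. The M71 ratio was 0.610 (0.233 to 1.59) in homozygotes against wild type, and a difference within this interval was not detectable at this depth.

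In homozygous against heterozygous mice, 2 of the 9, Olfr73 and Olfr160, had CPM values that did not overlap between the groups, against a background of 14.1% of all genes, and neither was called. The mOR-EG gene was higher and the M72 gene lower in homozygotes. None of the 9 was separated in homozygous against wild-type mice, where the background was 15.4%, or in heterozygous against wild-type mice, where it was 8.68%. In homozygous against wild-type mice 7 of the 9 had a positive and 2 a negative log2 fold change, with a median of 0.08, beside a median of 0.06 over 1070 OR genes and 0.00 over all genes. The median of the 9 was -0.05 in heterozygous against wild-type mice and 0.14 in homozygous against heterozygous mice, beside 0.01 and 0.05 over the OR genes. The last and the first of these comparisons share the homozygous libraries.

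**Figure D2:**
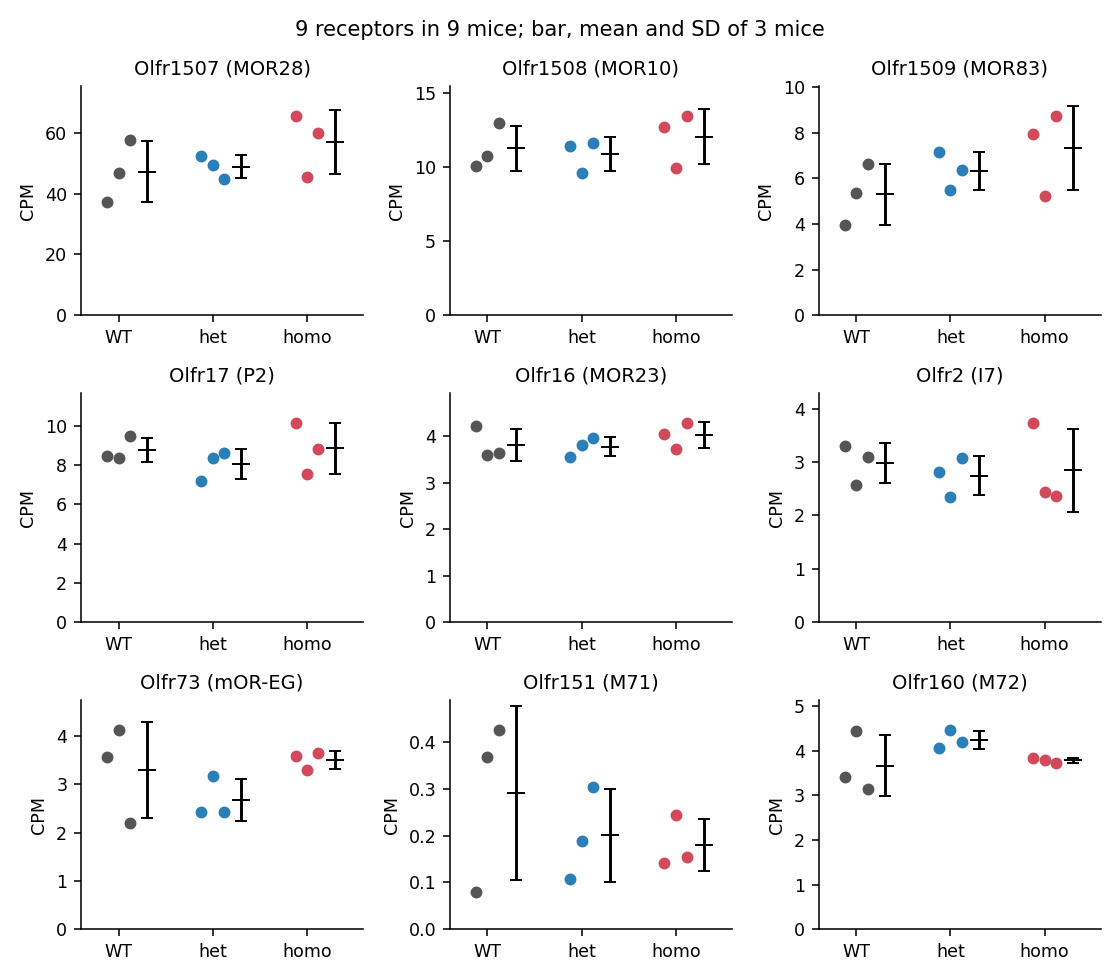
CPM of each receptor by genotype, with 1 point per mouse and, beside each group, a bar at the mean with its SD over 3 mice, on axes that start at 0. Groups overlap in every panel for homozygous against wild-type mice, and Olfr73 and Olfr160 are separated between heterozygous and homozygous mice.

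**Figure D3:**
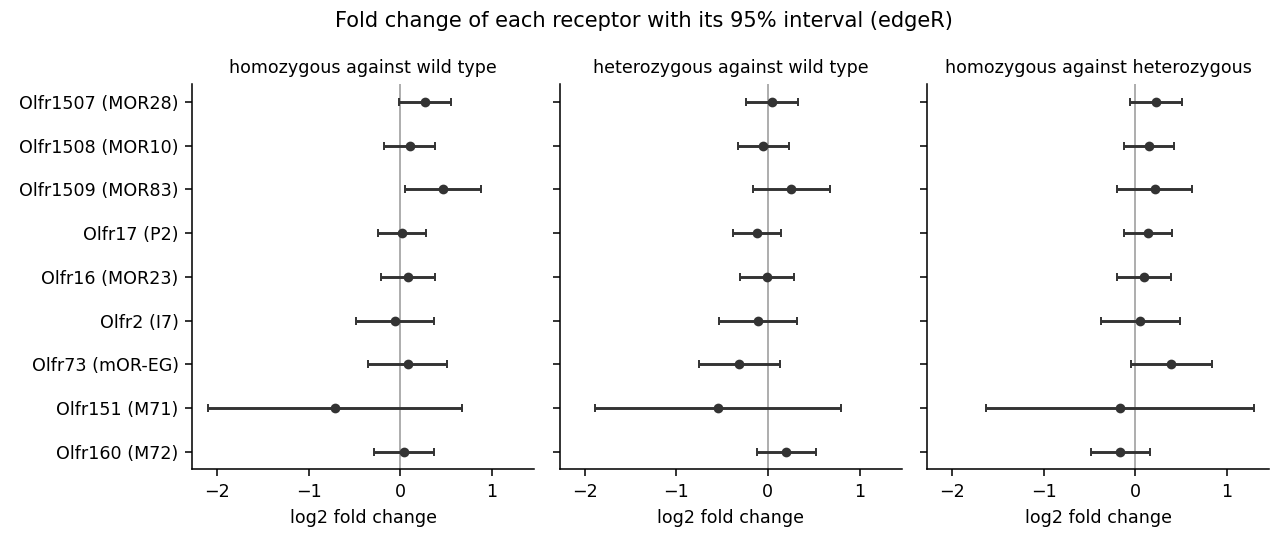
Log2 fold change of each receptor in the 3 comparisons, as a point with its unadjusted 95% interval computed from the edgeR fit. The interval excludes 0 only for Olfr1509 in homozygous against wild-type mice, before adjustment, and is widest for Olfr151, from -2.10 to 0.67 in that comparison.

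Across mice MOR28, MOR10 and MOR83 varied together, whereas the other 4 OR genes of chromosome 14 within 200 kb had r of -0.47, -0.39, 0.35 and 0.56 with Olfr1507. Log2 CPM of Olfr1507 and Olfr1509 correlated with Pearson r = 0.90 and Spearman rho = 0.87 over 9 mice, Olfr1508 and Olfr1509 with 0.83 and 0.80, and Olfr1507 and Olfr1508 with 0.77 and 0.63. Leaving out the 2 mice farthest from the median of the first gene of each pair gave r = 0.79, 0.82 and 0.76 over 7 mice. With the mean of each genotype removed the 3 correlations were between 0.76 and 0.94, and those of the other 33 pairs between -0.54 and 0.82, the highest for Olfr73 and Olfr160, so that the 3 did not then stand apart from every other pair. Without that step the other 33 pairs among the 9 had r from -0.50 to 0.58, with a median of 0.08, and P2 and I7 on chromosome 7 had 0.56. M71 and M72 on chromosome 9 had 0.08, with M71 at few reads. The ratio of MOR28 to MOR10 reads ran from 3.71 in WT 1 to 5.17 in het 2. The highest CPM was 1.76 times the lowest for MOR28 and 1.41 times for MOR10, so the ratio moved less than MOR28 but about as much as MOR10. Values of a library share its depth and scaling, and MOR28 and MOR10 share sequence. The part of either in these correlations was not tested. These correlations are given as a description without a test.

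MOR28 is the classic receptor of the ventral MOE, so genes that mark the dorsal and ventral parts were placed beside it, a choice made after seeing the data. Ncam2, an adhesion molecule of ventral neurons, had 79.1, 81.8 and 88.3 CPM in wild type, 86.7, 83.0 and 81.9 in heterozygotes and 90.9, 86.3 and 90.3 in homozygotes. It was lowest in WT 1 and highest in homo 1, as MOR28 was. Log2 CPM of Ncam2 correlated over the 9 mice with Olfr1507 at Pearson r = 0.92 and Spearman rho = 0.92, with Olfr1509 at 0.86 and 0.85, and with Olfr1508 at 0.73 and 0.65. Without the 2 farthest mice r was 0.83, 0.70 and 0.67. The other 6 receptors had r with Ncam2 from -0.29 to 0.35, and over 839 OR genes of at least 1 CPM the quartiles of r were -0.31 and 0.31. These 6 include Olfr2 (I7), which the paper's probe list places in the zone next to that of MOR28. Its r with Ncam2 was 0.05, and -0.55 without the 2 farthest mice, so r did not follow the listed zone for this receptor. Nqo1 and Acsm4, enzymes of the dorsal MOE, had r of -0.26 and -0.58 with Olfr1507, -0.17 and -0.37 with Olfr1508, and -0.19 and -0.46 with Olfr1509. With the other 6 receptors r ran from -0.44 to 0.35 for Nqo1 and from -0.16 to 0.44 for Acsm4. The r of Nqo1 with Olfr1507 thus lay inside the range of the other 6. The part of how the tissue was dissected, or of the zones it held, in the variation of MOR28 was not tested. None of the 3 zone genes was called between genotypes, and Acsm4 had the smallest p in homozygous against wild-type mice (log2 fold change -0.21, SE 0.07, edgeR adjusted p = 0.416).

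**Figure D4:**
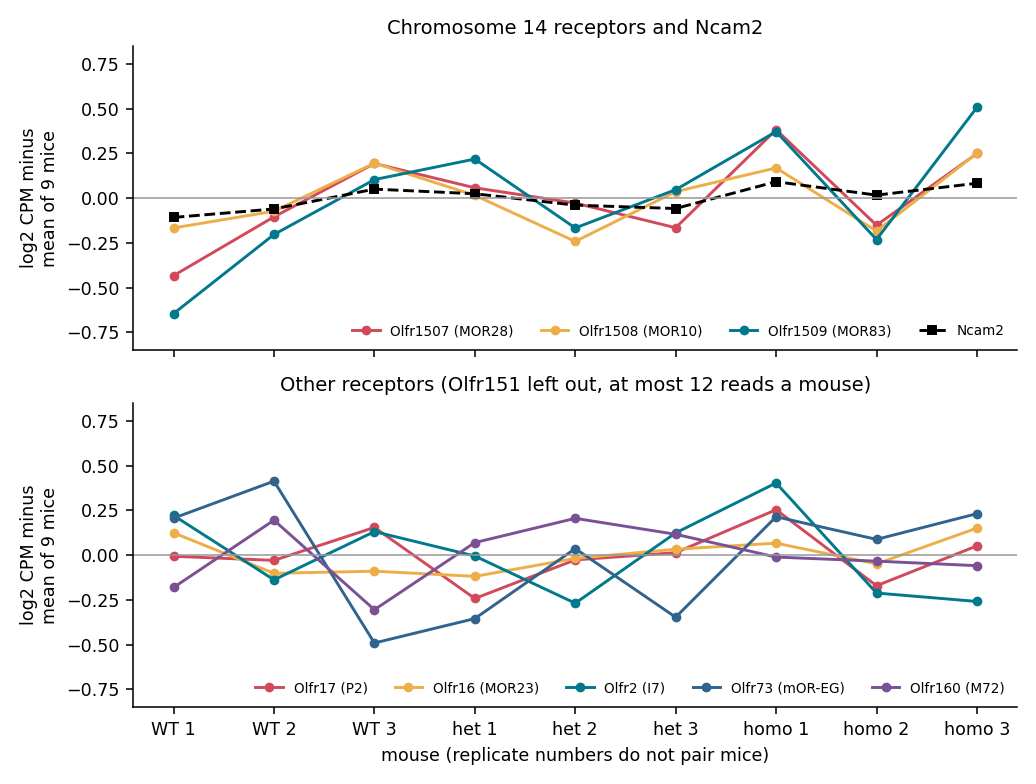
Log2 CPM of each receptor minus its mean over the 9 mice, for MOR28, MOR10 and MOR83 of chromosome 14 with Ncam2 (upper) and for 5 other receptors (lower), with lines only to guide the eye since mice have no order. Olfr1507, Olfr1508 and Olfr1509 are below their means in WT 1, WT 2, het 2 and homo 2 and above them in WT 3, het 1, homo 1 and homo 3, and Ncam2 follows with a smaller range except in homo 2.

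**Figure D5:**
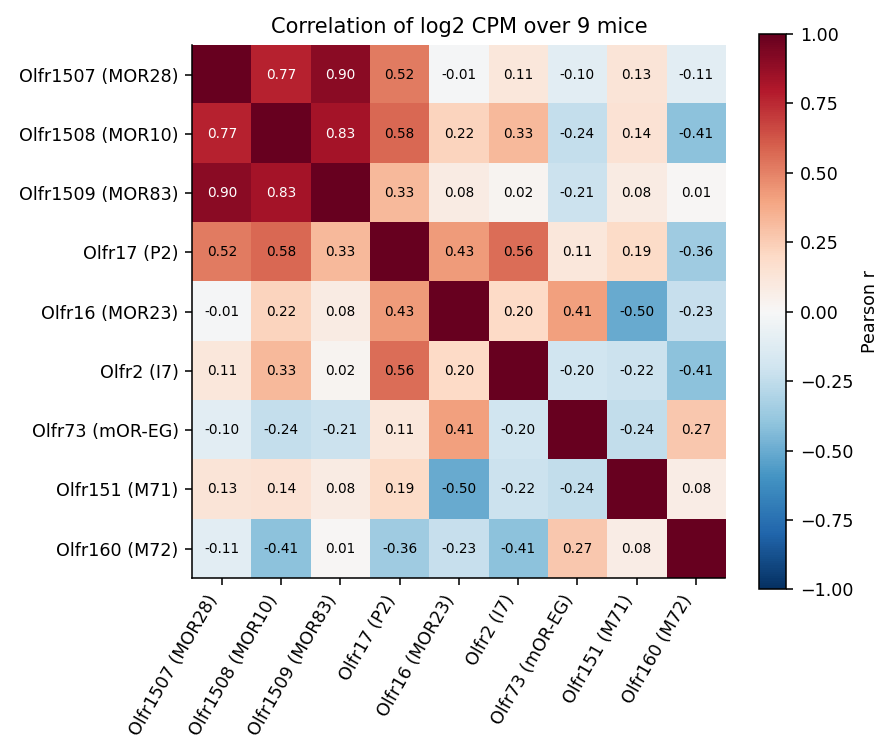
Pearson r of log2 CPM over 9 mice for every pair of the 9 receptors, with colour from -1 to 1. The block of Olfr1507, Olfr1508 and Olfr1509 holds values of 0.77 to 0.90, and no other pair exceeds 0.58.

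For each receptor the OR gene of at least 1 CPM with the most similar profile over the 9 mice was named. For both Olfr1507 and Olfr1509 it was Olfr686 on chromosome 7, with r = 0.98 and 0.95. Olfr686 had 2.45, 3.30 and 4.10 CPM in wild type, 4.17, 3.33 and 3.28 in heterozygotes and 4.93, 3.29 and 4.49 in homozygotes, so that it too was lowest in WT 1 and highest in homo 1. Only 11 of 838 OR genes had r above 0.8 with Olfr1507. The gene most alike was Olfr1392 for Olfr1508 (r = 0.92), Olfr220 for Olfr17 (0.90), Olfr813 for Olfr16 (0.89), Olfr1058 for Olfr2 (0.84), Olfr76 for Olfr73 (0.90), Olfr1039 for Olfr160 (0.90) and Olfr390 for Olfr151 (0.89). None of these lies on the chromosome of its receptor. Each is the best of 838 or 839 genes over 9 mice and is given without a test.

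Within 200 kb of the 9 receptors lay 44 other OR genes, all tested, of which 0 were called in any comparison. At an unadjusted edgeR p under 0.05 there were 4 in homozygous against wild-type mice, 0 in heterozygous against wild-type and 2 in homozygous against heterozygous. On chromosome 14 the 4 neighbours had mean levels of 1.58 to 6.26 CPM, all below Olfr1508, and the smallest p in homozygous against wild-type mice belonged to Olfr1510 (log2 fold change 0.13, SE 0.16). On chromosome 7, with 15 neighbours, it was Olfr706 (0.42, SE 0.16), on chromosome 1, with 1 neighbour, Olfr1408 (0.02, SE 0.14), and on chromosome 9, with 6 neighbours, Olfr874 (0.39, SE 0.17). On chromosome 2, among 18 neighbours of Olfr73, it was Olfr1166, with 0.76 on the log2 scale (SE 0.22) and an adjusted p of 0.343 by edgeR.

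Genes whose proteins serve the choice of an OR gene were measured alongside, as mRNA. They comprise the enhancer-binding factors Lhx2, Ldb1, Ebf1 to Ebf4 and Emx2, the demethylase Kdm1a, the lamin receptor Lbr, the feedback genes Atf5, Eif2ak3, Adcy3, Rtp1 and Rtp2, and the H3K9 methyltransferases Ehmt1, Ehmt2 and Setdb1. All 17 were tested and 0 passed in any comparison. In homozygous against wild-type mice 15 had a positive and 2 a negative log2 fold change with a median of 0.04, beside 0.00 over all genes. At an unadjusted edgeR p under 0.05 there were 5 of the 17 in that comparison, beside 1872 of all 20213 genes. Atf5, the stress-response factor that OR protein induces, had the smallest p there (log2 fold change 0.21, SE 0.05, edgeR adjusted p = 0.237), Adcy3 in heterozygous against wild-type (0.12, SE 0.06, adjusted p = 1.00) and Rtp1, which carries ORs to the membrane, in homozygous against heterozygous mice (0.14, SE 0.04, adjusted p = 0.298). The summed CPM of the 17 was 5892 to 6031 in wild type, 5978 to 6346 in heterozygotes and 6355 to 6526 in homozygotes. Among single genes, 15.4% of all were separated in homozygous against wild-type mice and 14.1% in homozygous against heterozygous mice. Abundant genes weigh most in this sum, with Atf5 at a mean of 1103 CPM in wild type and 1276 in homozygotes.

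Markers of the cell types of the tissue are given beside these values. The 10 genes of mature neurons, 3 of which also stand in the list above, summed to 8256 to 8331 CPM in wild type, 8328 to 8908 in heterozygotes and 8505 to 9163 in homozygotes, and 9 of the 10 had a positive log2 fold change in homozygous against wild-type mice. The 4 immature neuron genes summed to 1587 to 1618 CPM in wild type, 1519 to 1702 in heterozygotes and 1667 to 1684 in homozygotes. The 6 sustentacular genes summed to 6543 to 6912 CPM in wild type, 6127 to 7047 in heterozygotes and 6065 to 6475 in homozygotes. In the same order the 5 connective tissue genes summed to 11404 to 13128, 12099 to 14272 and 11174 to 12204 CPM. Sums of the mature, immature and sustentacular genes did not overlap between homozygous and wild-type mice, while heterozygotes overlapped both. Among single genes 15.4% of all were separated in homozygous against wild-type mice. The 4 progenitor genes, 3 horizontal basal genes and 4 respiratory ciliated genes had sums that overlapped between these genotypes. All 4 respiratory ciliated genes had a negative log2 fold change in homozygous against wild-type mice, with a median of -0.19, and Dnah5, a motor protein of cilia named after its values were seen, was at -0.65 (SE 0.23, edgeR adjusted p = 0.422), more than the 0.27 of MOR28 and the 0.47 of MOR83 in size. The 3 olfactory bulb genes summed to at most 14.3 CPM in any mouse. No gene of these lists was called in any comparison. Their part in the small differences of MOR28 and MOR83 was not tested.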

How the data were processed

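Per the labels, the authors prepared polyA-selected directional libraries, trimmed reads with Trimmomatic 0.36 and mapped them with HISAT2 2.1.0 to GRCm38. The deposited raw counts per gene come from HTSeq 0.6.1p1 per the labels, featureCounts per the methods; annotation and strand setting are not given in the sources used here. A deposited normalized signal, each count divided by 1 size factor per library, served only as a check on the counts.

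Groups came from sample titles. Genes with at least 10 summed counts were fitted with edgeR 4.0.16 (TMM, quasi-likelihood, all 9 libraries, genotype only) and adjusted by Benjamini-Hochberg over 20213 genes at 0.05. EdgeR p-values weigh a genotype difference against the spread between mice within genotypes, estimated over all 9 libraries and moderated across genes. Sign-flip p-values rest on ratios within each of the 9 mice, with genotypes pooled. The fit was tested on simulated data. Exon length was that of GENCODE M21 exons within the RefSeq span, since RefSeq exon lengths were not at hand; level ratios used counts plus 1. Coding runs were aligned with Biopython. Neighbours lay within 200 kb; named were the smallest p per locus, the smallest p per comparison of the choice genes, and the most alike OR gene. Members and lists were chosen with earlier results of these data known, and the zone genes after seeing the data. Alternatives were DESeq2 1.42.0, other scalings, filters and lengths, a replicate block, a vomeronasal covariate, and left-out libraries.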

Additional observations from a re-analysis of the deposited data

How the results depend on the processing

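No setting called any of the 9 receptors (75 combinations of setting and comparison, smallest adjusted p 0.356, for Olfr1509 in homozygous against wild-type mice without homo 2), apart from adjusted p-values that DESeq2 left undefined. Of the log2 fold changes 259 kept their sign and 8 turned, 225 and 18 when 1 library was left out. Scaling to OR reads turned Olfr17 to -0.046 and Olfr160 to -0.022 in homozygous against wild-type mice. The vomeronasal covariate turned Olfr2 to 0.17 there and, in heterozygous against wild-type mice, Olfr16 to 0.019 and Olfr2 to 0.00082. In homozygous against wild-type mice this covariate gave a higher value for each of the 9 receptors, for Olfr17 0.24 in place of 0.017. Without the 3 libraries rich in vomeronasal reads Olfr2 was 0.33 in homozygotes, and Olfr1507 -0.0041 and Olfr16 0.030 in heterozygotes. Leaving out 1 library gave, in homozygous against wild-type mice, -0.095 to 0.12 for Olfr17, -0.31 to 0.063 for Olfr2, -0.13 to 0.28 for Olfr73 and -0.059 to 0.21 for Olfr160, in heterozygous against wild-type mice -0.094 to 0.21 for Olfr1507, -0.12 to 0.061 for Olfr1508 and -0.056 to 0.061 for Olfr16, and in homozygous against heterozygous mice -0.20 to 0.17 for Olfr2 and -0.47 to 0.27 for Olfr151. The cause was not tested.

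Counts of genes called moved more, in the order homozygous against wild type, heterozygous against wild type, homozygous against heterozygous and any difference, from 10, 1, 23 and 13. DESeq2 called 66, 3, 122 and 124 by default and 48, 3, 123 and 92 without independent filtering. The fit on 6 libraries called 47, 0 and 11 for the pairs, and no filter 50 and 33 in the last 2 tests. Scaling to OR reads called 0 in heterozygotes and 21 for any difference, the vomeronasal covariate 8 and 7 in the last 2 tests, and leaving out the 3 libraries 6 in homozygous against heterozygous mice. Leaving out 1 library gave 8 to 33, 0 to 1, 7 to 190 and 7 to 70, the highest each time but the second without het 3. Deviations of same-numbered mice had correlations from -0.158 to 0.302. Without differently numbered mice as a reference, these cannot decide whether the numbers pair mice, and no pairing was used in the main fit. The replicate block called 12, 0, 41 and 20 genes. The number of receptor pairs passing was 33 or 34 in every setting, but the direction was not the same throughout. With coding length, all exons of GENCODE M21 or no length, 2 of the 36 pairs changed direction. Without het 1, homo 1 or homo 3, 1 pair did.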
